A study of Caenorhabditis elegans with 6 samples.

Results

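RNase P and RNase MRP are related ribonucleoprotein enzymes, each built around a single noncoding RNA. In *Caenorhabditis elegans* these are *rpr-1* (transcript Y48G10A.7), the RNase P RNA, and *mrpr-1* (E04F6.16), the RNase MRP RNA. Both were taken by transcript ID from a table of short transcripts, so 2 of the 2526 listed transcripts are described here. The 6 samples are whole worms, 3 fed bacteria with an empty vector (vector control) and 3 fed bacteria that deliver RNAi against *rpc-1*. This gene encodes the largest subunit of RNA polymerase III (hereafter Pol III). Per the methods of the study these were wild-type Bristol N2 adults, moved to the RNAi bacteria as last-stage larvae on plates with FuDR and collected on the second day of adulthood. Control and *rpc-1* RNAi worms shared the strain and age. RNAs below 200 nucleotides were selected and demethylated before sequencing. The values are Salmon's estimated read counts per transcript.

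RNase P removes the 5′ leader from precursor tRNAs, and RNase MRP takes part in processing of the precursor rRNA that yields the 5.8S rRNA, a role worked out mainly in yeast. Both RNAs fold around a common catalytic core and share most of their protein partners. In mammals both genes are transcribed by Pol III, the polymerase that also makes the tRNA substrates of RNase P, so its RNA is a product of the same polymerase as the precursors it cuts. In some other animals, such as *Drosophila*, the RNase P RNA is made by RNA polymerase II, and which polymerase makes *rpr-1* and *mrpr-1* was not tested here.

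On WBcel235, *rpr-1* lies on chromosome I from 13463955 to 13464207, on the plus strand. It falls inside an intron of *ints-8* (13462739 to 13464761), an Integrator complex subunit gene transcribed from the opposite strand, and overlaps none of its exons. The gene for *mrpr-1* lies on chromosome II from 7200233 to 7200418, on the plus strand, with no overlapping gene. It sits 130 bases before the protein-coding gene *pcrg-1* and 667 bases beyond *E04F6.6*. No other listed transcript overlaps either one, and each is listed as a single copy. The annotated *rpr-1* RNA is 253 bases long and so exceeds the size-selection limit, whereas *mrpr-1*, at 186 bases, does not.

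Counts over all listed transcripts summed to between 9362216 (vector control replicate 2) and 21685824 (*rpc-1* RNAi replicate 3). These sums cover short transcripts and not whole libraries. The *rpc-1* mRNA was not among them (0 of 2526), so the knockdown itself was not checked here. Pairs of samples within a group differed far beyond counting noise, with chi-square values of at least 874 per degree of freedom. In whole worms, fewer cells of a type and less RNA per cell cannot be told apart.

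Neither RNA was called changed by *rpc-1* RNAi, and both varied between samples of one group, *mrpr-1* more than *rpr-1*. For the *rpr-1* RNA, vector control replicates 1, 2 and 3 gave 6562, 6485 and 8909 counts. The *rpc-1* RNAi replicates gave 6737, 9816 and 12701. Scaled by DESeq2 size factors, these became 6323, 12944 and 8177 normalized counts in controls and 5770, 7468 and 9029 in RNAi. Control replicate 2 was the highest sample and RNAi replicate 1 the lowest, and the groups overlapped. The group means were 9148 ± 3416 (SD, n = 3) and 7422 ± 1630 (SD, n = 3) normalized counts.

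For the *mrpr-1* RNA, the controls gave 1938, 3127 and 5773 counts and the RNAi samples 2258, 8067 and 10844. Its normalized counts were 1867, 6242 and 5299 in controls and 1934, 6137 and 7709 in RNAi. Replicate 1 was the lowest sample of each group, and the groups overlapped. The means were 4469 ± 2302 (SD, n = 3) and 5260 ± 2986 (SD, n = 3) normalized counts. From the lowest to the highest of the 6 samples *mrpr-1* spanned 4.13-fold, whereas *rpr-1* spanned 2.24-fold.

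**Figure D1:**
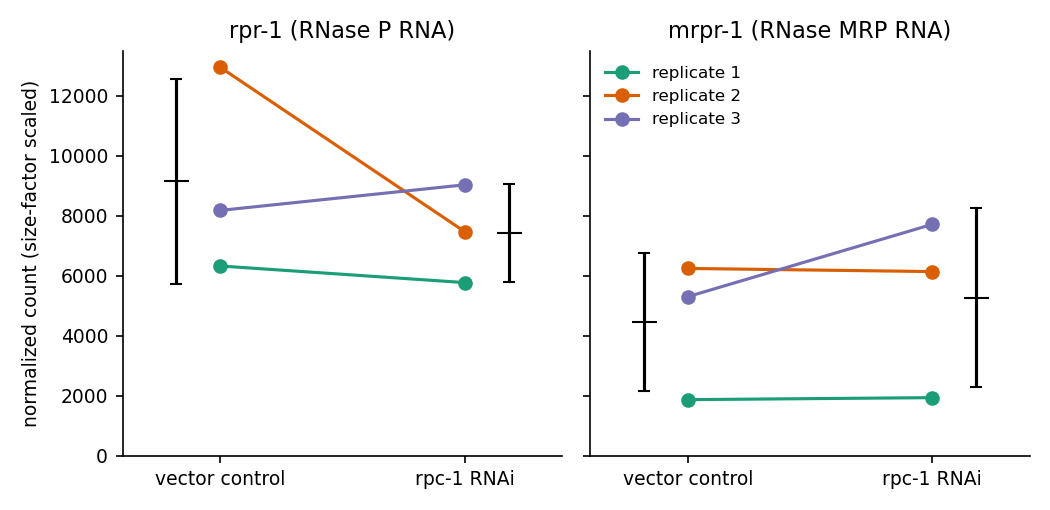
Size-factor normalized counts of *rpr-1* (left) and *mrpr-1* (right) in each sample, with lines joining samples of the same replicate number and black bars showing the group mean ± SD (n = 3). The groups overlap for both RNAs, and *mrpr-1* is lowest in replicate 1 of each group, at 1867 and 1934.

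By the DESeq2 Wald test over all transcripts, the log2 change of *rpr-1* was -0.30 ± 0.65 (SE; adjusted p from DESeq2 0.99). The 95% interval ran from 0.337-fold to 1.95-fold of the control level. For *mrpr-1* it was 0.24 ± 0.82 (SE; adjusted p from DESeq2 0.99), with an interval from 0.387-fold to 3.58-fold. Changes of these sizes in either direction were therefore within the interval, and the test does not show that the levels were equal. Over the whole table DESeq2 called 7.29% of 1083 tested transcripts at 10% FDR, 4.16% lower and 3.14% higher.

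Same-numbered samples shared part of their deviation from the group means, and fitting the replicate number as a block narrowed both intervals. With the block, the log2 change of *rpr-1* was -0.26 ± 0.32 (SE; adjusted p from DESeq2 0.64), and the interval ran from 0.543-fold to 1.28-fold. That of *mrpr-1* was 0.19 ± 0.25 (SE; adjusted p from DESeq2 0.68), from 0.809-fold to 1.61-fold. Neither was called, although the block raised the share of called transcripts to 29.0% of 959. By same-numbered pair, the normalized *rpr-1* level in RNAi was 0.913, 0.577 and 1.10 of the control level in pairs 1, 2 and 3. For *mrpr-1* these ratios were 1.04, 0.983 and 1.45.

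The direction of both changes rested on single samples. The log2 change of *rpr-1* was 0.054 in place of -0.30 once control replicate 2 was left out. That of *mrpr-1* was -0.15 without vector control replicate 1 and -0.16 without *rpc-1* RNAi replicate 3. With size factors from snoRNAs, which moved the median of all tested transcripts from 0.00 to -0.38, *mrpr-1* was at -0.096 and *rpr-1* at -0.65. The paper counts some worm snoRNAs among Pol III products.

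**Figure D2:**
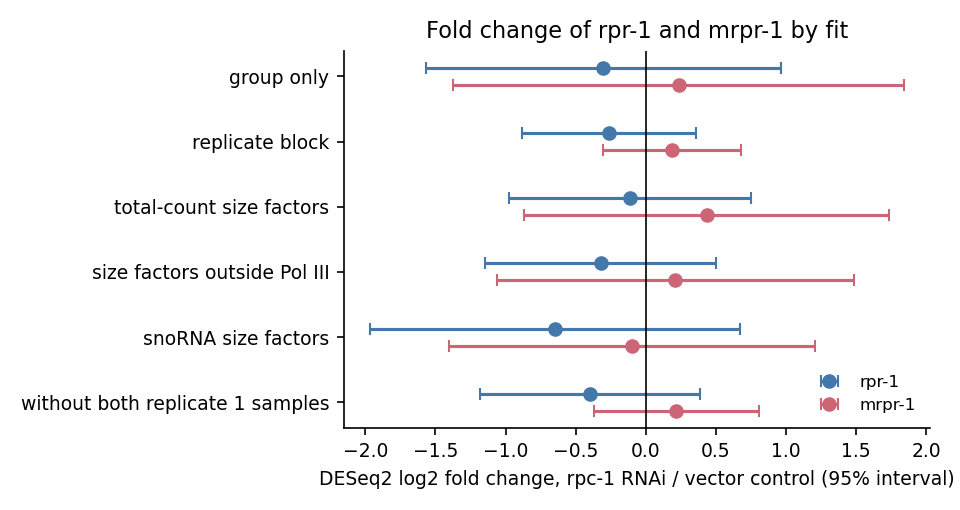
DESeq2 log2 fold change (*rpc-1* RNAi over vector control) of *rpr-1* and *mrpr-1* under 6 fits, with 95% intervals. Every interval shown includes 0, and the intervals of the block fit, -0.88 to 0.36 for *rpr-1* and -0.31 to 0.68 for *mrpr-1*, are narrower than those with group as the only term.

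Because both RNAs were read from the same library, their ratio does not depend on size factors. Their annotated lengths lie on either side of the size-selection limit, and the part of the selection in this ratio was not tested. Vector control replicates 1, 2 and 3 had 0.295, 0.482 and 0.648 *mrpr-1* counts per *rpr-1* count. With *rpc-1* RNAi the ratios were 0.335, 0.822 and 0.854. The RNAi ratio was the higher one in all 3 same-numbered pairs, by 1.13-fold, 1.70-fold and 1.32-fold. As a share of the counts on both RNAs, *mrpr-1* made up 22.8% (Wilson 95% interval 21.9 to 23.7), 32.5% (31.6 to 33.5) and 39.3% (38.5 to 40.1) in controls. In RNAi it made up 25.1% (24.2 to 26.0), 45.1% (44.4 to 45.8) and 46.1% (45.4 to 46.7). The intervals of the samples in each pair did not touch, but they cover counting error alone, and PCR copies of a read are not separate molecules.

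The groups themselves overlapped, because RNAi replicate 1 lay below control replicates 2 and 3. The mean log2 difference was 0.45, smaller than the SD of log2 ratios within controls (0.57) and within RNAi samples (0.76). The exact two-sided permutation p was 0.50, where 3 samples against 3 cannot give less than 0.10. Taken as pairs, the mean of 0.45 ± 0.30 (SD, 3 pairs) gave p = 0.25 by exact two-sided sign flipping, the lowest value that 3 pairs allow. A ratio to *rpr-1* that was higher in all 3 pairs was common: 33.4% of 584 other transcripts (mean normalized count 100 or more, no sample at 0) showed it. Without both replicate 1 samples, an alternative chosen after seeing the data, the difference was 0.58. Corrected for length, the ratio per base was 0.402, 0.656 and 0.881 in controls and 0.456, 1.12 and 1.16 in RNAi. Thus *mrpr-1* exceeded *rpr-1* per base in RNAi replicates 2 and 3 and in none of the other 4 samples.

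**Figure D3:**
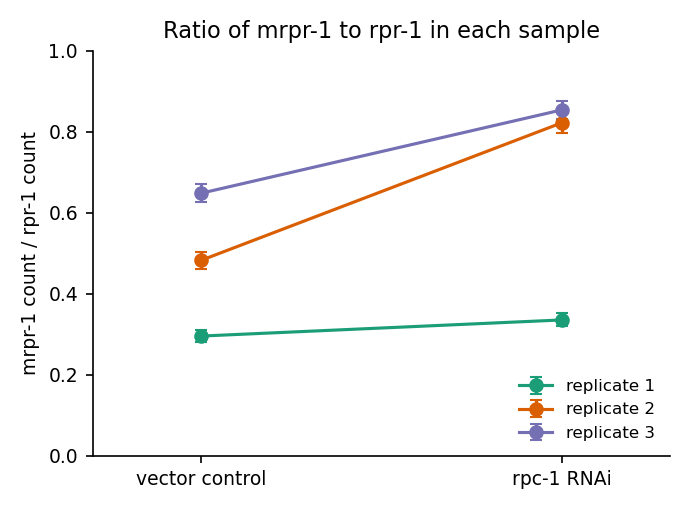
Counts of *mrpr-1* divided by counts of *rpr-1* in each sample, with lines joining same-numbered samples and Wilson 95% intervals for counting error. Each line rises from vector control to *rpc-1* RNAi, and the replicate 1 samples, at 0.295 and 0.335, are the lowest of their groups.

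The level of *mrpr-1* differed more between replicate numbers than between groups. On the log2 scale of normalized counts, *mrpr-1* deviated from its group mean by -1.08 in control replicate 1 and by -1.22 in RNAi replicate 1. The deviations of *rpr-1* in these samples were -0.47 and -0.34. Of 584 other transcripts, 33.4% were likewise lowest in replicate 1 of both groups. The within-group SD of log2 normalized counts was 1.01 for *mrpr-1* and 0.44 for *rpr-1*, against a median of 0.79 over the 368 transcripts whose mean reached 1000. A smaller SD than that of *rpr-1* was seen in 78 of these 368, and a smaller one than that of *mrpr-1* in 251.

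Counts by length class, in large part those of 5.8S rRNA, also moved with the replicate number. Transcripts of 100 to 200 bases, which include *mrpr-1* and 5.8S rRNA, held 28.1%, 52.6% and 52.5% of counts in the controls and 38.1%, 58.7% and 53.4% in RNAi. Without 5.8S rRNA they held 19.0%, 23.3% and 22.2% in controls and 28.5%, 29.7% and 26.8% in RNAi, so replicate 1 was then lowest among the controls but not among the RNAi samples. Those over 200 bases, which include *rpr-1*, held 1.58%, 2.46% and 2.45% in controls and 1.78%, 2.51% and 3.03% in RNAi. Replicate 1 was lowest of both groups in this class. The count ratio of the 13 snoRNAs over 200 bases to the 183 shorter ones followed another order, with 0.0145, 0.0120 and 0.0107 in controls and 0.0104, 0.0194 and 0.0155 in RNAi. The part of length selection in the levels of the RNAs described here was not tested.

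**Figure D4:**
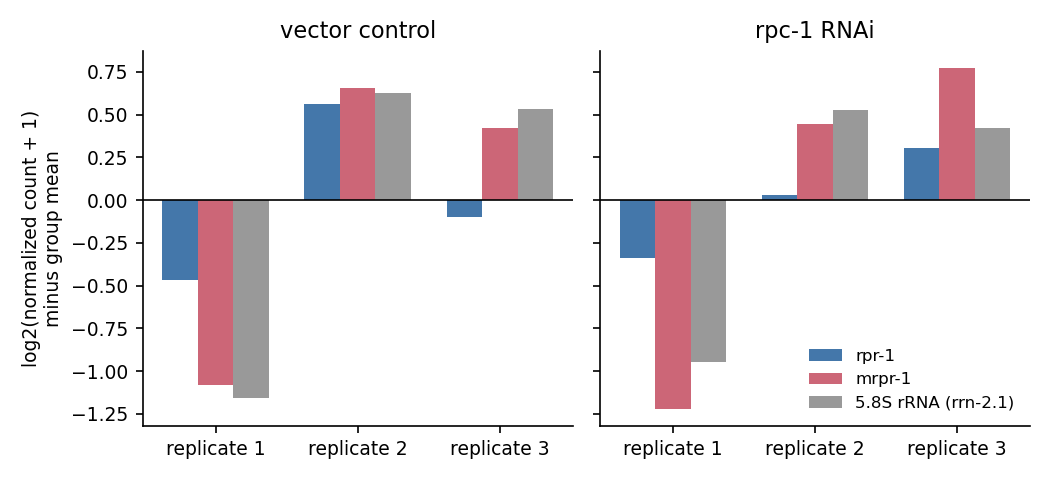
Deviation of log2(normalized count + 1) from the group mean for *rpr-1*, *mrpr-1* and 5.8S rRNA in each sample of the vector control (left) and *rpc-1* RNAi (right). In replicate 1 of both groups *mrpr-1* (-1.08 and -1.22) and 5.8S rRNA (-1.16 and -0.95) fall further below their means than *rpr-1* does (-0.47 and -0.34).

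The enzymes' RNAs were next set against the RNA classes whose precursors they process. Within a sample, 5.8S rRNA (*rrn-2.1*) had 853, 878 and 969 counts per *mrpr-1* count in controls 1, 2 and 3. The controls thus differed by 1.14-fold in this ratio while *mrpr-1* itself differed by 3.34-fold between them. With *rpc-1* RNAi the ratio was 821, 721 and 532. All RNAi samples lay below all controls, although only narrowly so in replicate 1. Of 584 transcripts, 2.91% had a ratio to *mrpr-1* with the RNAi samples all below the controls, and 35.4% had one that was lower in all 3 pairs. The mean log2 difference was -0.40, with -0.06, -0.28 and -0.86 in pairs 1, 2 and 3. The exact permutation p was 0.10, the smallest these groups can give, and 0.73 after Benjamini-Hochberg adjustment over the 11 ratios compared. Leaving out 1 sample at a time gave -0.54 to -0.22, and the end nearest 0 came without *rpc-1* RNAi replicate 3. Relative to *rpr-1*, 5.8S rRNA changed direction between pairs, with log2 differences of 0.13, 0.49 and -0.47 (exact permutation p 0.80). The 5.8S rRNA itself is made by RNA polymerase I.

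Nuclear tRNAs were summed over 143 transcripts. The listed transcripts are annotated tRNAs, so the sum does not measure the 5′-extended precursors that RNase P cuts. They were counted 272, 19.4 and 74.7 times per *rpr-1* count in controls and 32.1, 10.1 and 6.0 times in RNAi. The ratio was lower with RNAi in each pair, at 0.118, 0.519 and 0.0804 of the control ratio. How many other transcripts had a ratio to *rpr-1* that was lower in every pair was not counted. The groups overlapped, since control replicate 2 lay below RNAi replicate 1. The mean log2 difference was -2.56 (exact permutation p 0.20, adjusted 0.73). Leaving out control replicate 1 moved it to -1.61, and leaving out control replicate 2 to -3.52. Of these tRNAs, DESeq2 tested 126 and called 26 lower and 9 higher at 10% FDR, and 48 lower and 18 higher of 129 with the replicate block. Over all tested transcripts, the same fits called 7.29% of 1083 and 29.0% of 959, so the block raised calls across the whole table.

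Among RNAs other than tRNAs that Pol III makes, the Y RNA *yrn-1* had 1.58, 0.427 and 1.17 counts per *rpr-1* count in controls. In RNAi it had 0.900, 0.422 and 0.651. The RNAi value was lower in each pair, but in pair 2 it was 0.988 of the control value, and the groups overlapped (exact permutation p 0.40, adjusted 0.79). Relative to *mrpr-1*, *yrn-1* was at 0.501, 0.580 and 0.423 of the control ratio in the 3 pairs. This was a mean log2 difference of -1.01 with a paired SD of 0.23 (exact permutation p 0.40, adjusted 0.79; sign-flip p 0.25). Leaving out control replicate 1 moved it to -0.31, and leaving out RNAi replicate 1 to -1.71. The summed 7SL RNA, the RNA of the signal recognition particle, and the summed 5S rRNA changed direction between pairs against both *rpr-1* and *mrpr-1*. Their mean log2 differences were 0.17 and 0.35 relative to *rpr-1* and -0.28 and -0.10 relative to *mrpr-1*, with exact permutation p between 0.50 and 0.80. Of the 9 transcripts of 5S rRNA, 7SL RNA and Y RNA, 8 had a DESeq2 adjusted p and 0 were called, with 1 at an unadjusted p under 0.05. The edgeR test of all 9 also gave 0 calls and 1 at that level, whereas DESeq2 with the replicate block called 3 of 9, 1 lower and 2 higher, where it called 29.0% of all tested transcripts.

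**Figure D5:**
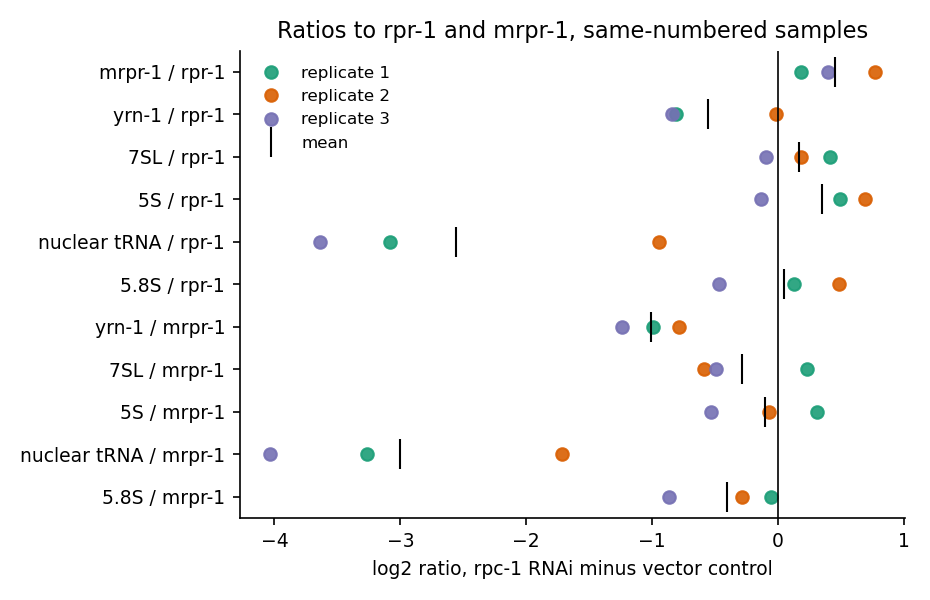
Differences (*rpc-1* RNAi minus vector control) in the log2 ratio of RNA classes to *rpr-1* or *mrpr-1*, one point per same-numbered pair and a vertical tick for the mean of 3 pairs. The ratios of *mrpr-1* to *rpr-1* lie above 0 in all pairs. Those of nuclear tRNA and *yrn-1* to both *rpr-1* and *mrpr-1*, and of 5.8S rRNA to *mrpr-1*, lie below 0 in all pairs. Of 584 transcripts, 35.4% had a ratio to *mrpr-1* that was lower in all pairs. The share with a lower ratio to *rpr-1* in all pairs was not counted.

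In normalized counts per base, *mrpr-1* and *rpr-1* had the lowest control means of the RNAs compared. The order sets RNAs over the 200-nucleotide selection limit (*rpr-1* and 7SL) beside shorter ones, and the part of the selection in it was not tested. Levels in controls were 24.0 ± 12.4 for *mrpr-1* and 36.2 ± 13.5 for *rpr-1* (SD, n = 3), and the 2 ranges overlapped. The next in order was *yrn-1*, at 79.7 ± 23.5 (SD, n = 3) per base, whose lowest control sample (52.7) was just above the highest for *rpr-1* (51.2). It overlapped with the most abundant 7SL transcript, ZC155.8, at 93.5 ± 5.78 (SD, n = 3). The 5.8S rRNA, at 26587 ± 14054 (SD, n = 3), and the most abundant 5S transcript, ZK218.19, at 25054 ± 3848 (SD, n = 3), were far above and overlapped each other. Near-identical 5S copies share reads, so the level of a single copy is uncertain. Summed over their copies in controls, 5S reached 52411 ± 4629 and 7SL 199.8 ± 19.8 per base (SD, n = 3). These sums lay above all control samples of 5.8S rRNA and of *yrn-1*, respectively, so both overlaps hold for single copies only. In RNAi the levels per base were 28.3 ± 16.1 for *mrpr-1*, 29.3 ± 6.44 for *rpr-1* and 45.2 ± 13.5 for *yrn-1* (SD, n = 3), and these ranges overlapped, with *mrpr-1* above *yrn-1* in RNAi replicate 2 (33.0 against 30.0). By raw count, *rpr-1* ranked between 98 and 154 among all listed transcripts of a sample and *mrpr-1* between 125 and 283.

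Across the 6 samples, the transcripts whose log2 normalized counts followed *mrpr-1* most closely were the snoRNAs T09B9.10 (Pearson r 0.98), Y74C9A.6 (0.98) and C17D12.8 (0.97). These were the first 3 of 637 transcripts whose mean reached 100, of which 132 were snoRNAs. For Y74C9A.6, control counts were 3709, 6592 and 8917 and RNAi counts 4712, 17481 and 19539, with replicate 1 lowest in both groups. The order is by Pearson r only: T09B9.10 had a Spearman rho of 0.71 and C17D12.8 one of 0.83. Counts of T09B9.10 were low in replicate 1, at 78, 239 and 570 in controls and 83, 670 and 743 in RNAi. The 5.8S rRNA stood at place 23 (r 0.94, Spearman rho 0.54). The closest to *rpr-1* were the tRNA ZK1010.t1 (r 0.95), the pseudogene C52E12.t1 (r 0.93) and the ncRNA Y54G9A.14 (r 0.93). For ZK1010.t1, control counts were 46, 127 and 138 and RNAi counts 72, 118 and 180, so its values carry more counting error. Between *rpr-1* and *mrpr-1*, r was 0.76 (rho 0.83): *mrpr-1* stood at place 38 for *rpr-1*, and *rpr-1* at place 139 for *mrpr-1*. All of these correlations describe 6 points that share size factors and replicate numbers.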

How the data were processed

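Short RNA profiles of 6 whole-worm samples were used, with group codes (wt and rpc) and replicate numbers taken from the sample titles. The reading of these codes as vector control and *rpc-1* RNAi follows the study's own description. The authors trimmed reads with Cutadapt, quantified them with Salmon against a decoy-aware WBcel235 index of every RNA class, and used tximport to load transcripts under 300 bases; the deposited values are the resulting estimated counts. All were whole numbers, so rounding changed none. Salmon splits reads between similar transcripts, and use of read strand is not given in the sources used here. Of 2526 transcripts, 2506 matched Ensembl release 115, which gave classes, exon lengths and 1-based coordinates. No genome sequence was used, so no RNA sequence is printed.

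The main test was DESeq2 1.42.0 (R 4.3.3; Wald test, default size factors, no covariate) over the whole table, with adjusted p (Benjamini-Hochberg) under 0.10, following the study's DESeq2 workflow at 10% FDR. Intervals are 95% normal intervals from the SE. Alternatives were edgeR 4.0.16 (quasi-likelihood, TMM), other size factors and filters, 5% FDR, a replicate block and leaving out each sample. Both tools were also run on simulated counts with large changes and no shared replicate effect. That run does not bear on changes as small as those of *rpr-1* and *mrpr-1*, or on what the block takes up. Log2 ratios of counts within a sample were tested by permuting the 6 labels exactly (20 labelings, two-sided). Wilson intervals and permutations used Python 3.11.15 with scipy 1.17.1.

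Same-numbered samples had correlated deviations from their group means (r 0.55, 0.20 and 0.40 over 817 transcripts, mean 0.38). With replicates 2 and 3 exchanged in RNAi, the mean was 0.24. The number was treated as pairing samples on the basis of these same data, and nothing in the labels says what it marks. No label says whether samples were separate cultures, so p-values measure only the spread between these samples. The 2 RNAs and all lists were chosen with earlier results of these data known. Named beside them are the most abundant 5S, 7SL, 5.8S and Y transcripts per base, and the 3 transcripts with the highest Pearson r to each RNA.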

Additional observations from a re-analysis of the deposited data

How the results depend on the processing

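Neither RNA was called under any setting tried. The log2 fold change of *rpr-1* was -0.52 to 0.054 when 1 sample was left out, and that of *mrpr-1* -0.16 to 0.62. With snoRNA size factors *mrpr-1* was at -0.096, and the cause was not tested. The log2 ratio difference of *mrpr-1* to *rpr-1* (0.45) kept its sign under all 10 alternatives. These include the mean over pairs, which equals it by arithmetic. The difference ran from 0.14 (without vector control replicate 1) to 0.89 (without *rpc-1* RNAi replicate 1) when 1 sample was left out. With 1 sample left out, that of 7SL to *rpr-1* was -0.15 to 0.37, of 5.8S to *rpr-1* -0.30 to 0.36, of 7SL to *mrpr-1* -1.05 to 0.22 and of 5S to *mrpr-1* -0.77 to 0.37, so these had no stable direction. The ratio of nuclear tRNA to *mrpr-1* was -4.13 to -1.75, of *yrn-1* to *rpr-1* -1.12 to -0.17 and of 5S to *rpr-1* 0.12 to 0.54. The replicate block changed no call of either RNA.

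Transcripts past 10% FDR numbered 79 (45 lower, 34 higher). There were 128 with total-count size factors (59 lower, 69 higher, with the median of tested transcripts at 0.15), 127 with non-Pol III size factors, 278 with the replicate block and 74 to 180 with 1 sample left out, the highest without *rpc-1* RNAi replicate 1. Settings chosen after seeing the data gave 147 (edgeR with the block) and 212 (without both replicate 1 samples). The 35 tRNA calls became 25 with edgeR, 29 with snoRNA size factors, 33 without independent filtering and 34 at 5% FDR. They became 66 with the block, 54 without both replicate 1 samples and 35 to 57 with 1 sample left out. The 0 other Pol III calls became 3 with the block, 0 to 2 with 1 sample left out, and 1 each with total-count size factors, non-Pol III size factors, a minimum mean count of 10, edgeR with the block and without both replicate 1 samples.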
